A study of Homo sapiens with 8 samples.

Results

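The proteasome genes described here are the subunits and helpers of the proteasome, taken by symbol as PSMA to PSMG genes with a number together with ADRM1 and POMP, without pseudogenes. Of the 50 such genes on the array, 48 were measured, meaning that at least 1 probe exceeded background clearly on every one of the 8 arrays, and the brightest such probe represented the gene. In all, 10959 of 22439 gene symbols were measured by the same rule. PSMA8 and PSMB11, a testis and a thymus subunit of the core particle, were not well above background on any array.

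A431 cells, a human cutaneous squamous cell carcinoma line, received either a negative control miRNA (miR-NC) or miR-634 by transfection at 10 nM, and were analyzed 24 h later by RIP-chip. AGO2-bound RNA was pulled down (RIP), and total RNA was taken as input. RIP and input of miR-NC cells and RIP and input of miR-634 cells made up the 4 groups, with 2 one-color arrays in each. Normal rabbit IgG is named as the antibody of the input arrays in the labels, whereas the study's methods describe total RNA, and they are treated here as input. The duplicates were not stated to be separate transfections, so the p-values measure only the spread between these arrays, which may be technical, and the precision is limited by how many arrays there were. By the labels, the cells differ only in the miRNA they received.

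The 8 arrays shared 1 slide and 1 scan. The share of spots well above background was 45.6% to 45.8% on input arrays, 33.6% and 34.5% for the miR-NC RIP and 40.0% for both arrays of the miR-634 RIP. All 12 epithelial markers looked for were measured, none of 5 fibroblast markers was, and of the immune and endothelial markers only CD14 and CDH5 were. Markers not measured were not all absent, since a probe was well above background on 6 arrays for PDGFRB, 5 for PTPRC, 4 for COL1A1 and 1 for DCN. For COL1A2, COL3A1, CD3E and PECAM1 this was so on no array. As a check of the labels, the fold change of enrichment of the 6 known miR-634 targets that were measured (APIP, BIRC5, TFAM, LAMP2, XIAP and OPA1) was higher in miR-634 cells, from 0.45 for XIAP to 3.17 for APIP on the log2 scale. NRF2 (NFE2L2), which the study also names as a target, was not well above background on any array.

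The proteasome is the barrel-shaped protease that degrades ubiquitin-tagged proteins. Its core particle is built of rings of α subunits, which gate the entrance, and rings of β subunits, some of which carry the protease sites. A regulatory particle caps the core, with a base of ATPases and ubiquitin receptors that unfold the substrate and a lid that removes the ubiquitin. Dedicated chaperones put core and base together and leave or are degraded afterwards. AGO2 carries the miRNA and holds mRNAs that pair with it, mostly through the seed. A rise of an mRNA in the RIP over the input thus means that more of it was recovered with AGO2, relative to other genes.

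The miRNA given to the cells is shown because its seed, bases 2 to 8 in capitals, is the part that pairs with target mRNAs. The mature sequence, of 22 bases, comes from RefSeq (GRCh38.p14, chr17:66787132-66787153, plus strand), within the span of the PRKCA gene. 
hsa-miR-634: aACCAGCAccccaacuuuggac

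In miR-NC cells, proteasome mRNAs were mostly below their input level in the RIP. RIP/input, which is the difference of the log2 levels in RIP and input, was lower than 0 for 31 of the 48 members and higher for 11 (limma, adjusted p under 0.05), where 45.3% of all measured genes were lower and 33.5% were higher. The median over the members was -0.44, against -0.12 over all genes. Few members were far from their input, with 1 more than 2-fold higher and 3 more than 2-fold lower, where 11.6% and 10.5% of all genes were. When the arrays were scaled on their spike-in probes, the median RIP/input of all genes in miR-NC cells moved to -2.57. With that scaling 47 members were lower and 0 were higher, where 10709 of all 10959 genes were lower and 70 were higher.

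PSMG4, a chaperone of core assembly, had the highest RIP/input of all members in miR-NC cells. Relative to the 75th percentile of each array, which is the scale of every level given here, its log2 level was -0.33 and -0.32 in the miR-NC input, 1.85 and 1.86 in the miR-NC RIP, -0.26 and -0.31 in the miR-634 input, and 1.22 and 1.23 in the miR-634 RIP. Both RIP groups thus lay above both input groups without overlap, and RIP/input was 2.18 in control cells (SE 0.0432, adjusted p = 2.77e-07) and 1.51 in miR-634 cells (adjusted p = 3.11e-07). Next came PSMB1, a β subunit of the core without protease activity, with levels of 5.03 and 5.06 in the miR-NC input, 5.74 and 5.84 in the miR-NC RIP, 4.93 and 4.97 in the miR-634 input, and 6.33 and 6.34 in the miR-634 RIP. Its RIP/input was 0.74 in miR-NC cells (adjusted p = 2.05e-05), with 1.38 in miR-634 cells (adjusted p = 7.74e-07). The RIP arrays of both kinds of cells lay above all input arrays for this gene, and those of miR-634 cells lay highest.

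At the other end were PSMD12, a scaffold subunit of the lid, and PSMG1, which pairs with PSMG2 as a chaperone of the α ring. PSMD12 had levels of 0.67 and 0.68 in the miR-NC input, -0.70 and -0.78 in the miR-NC RIP, 0.84 and 0.76 in the miR-634 input, and -1.09 and -1.09 in the miR-634 RIP, which gave RIP/input of -1.42 in miR-NC cells (adjusted p = 1.87e-06), with -1.89 in miR-634 cells (adjusted p = 2.83e-07). PSMG1 had levels of 2.73 and 2.71 in the miR-NC input, 1.53 and 1.43 in the miR-NC RIP, 2.66 and 2.64 in the miR-634 input, and 1.03 and 0.95 in the miR-634 RIP. For both genes every RIP array lay below every input array, and RIP/input of PSMG1 was -1.24 in miR-NC cells (adjusted p = 3.39e-06), with -1.66 in miR-634 cells (adjusted p = 4.9e-07).

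In miR-634 cells the members spread further apart. RIP/input was higher than 0 for 15 members and lower for 27, where 36.1% of all genes were higher and 48.3% were lower, with a median of -0.29 over the members and -0.17 over all genes. The SD of RIP/input across the members went from 0.66 in miR-NC cells to 1.17 in miR-634 cells, whereas across all genes it was 0.87 and 1.12. In miR-634 cells 13 members were more than 2-fold higher and 12 more than 2-fold lower, where 17.2% and 20.8% of all genes were. Under spike-in scaling 2 members were higher and 35 were lower, with a median over all genes of -1.57. Of all 10959 genes, 759 were higher and 9082 were lower with that scaling.

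**Figure D1:**
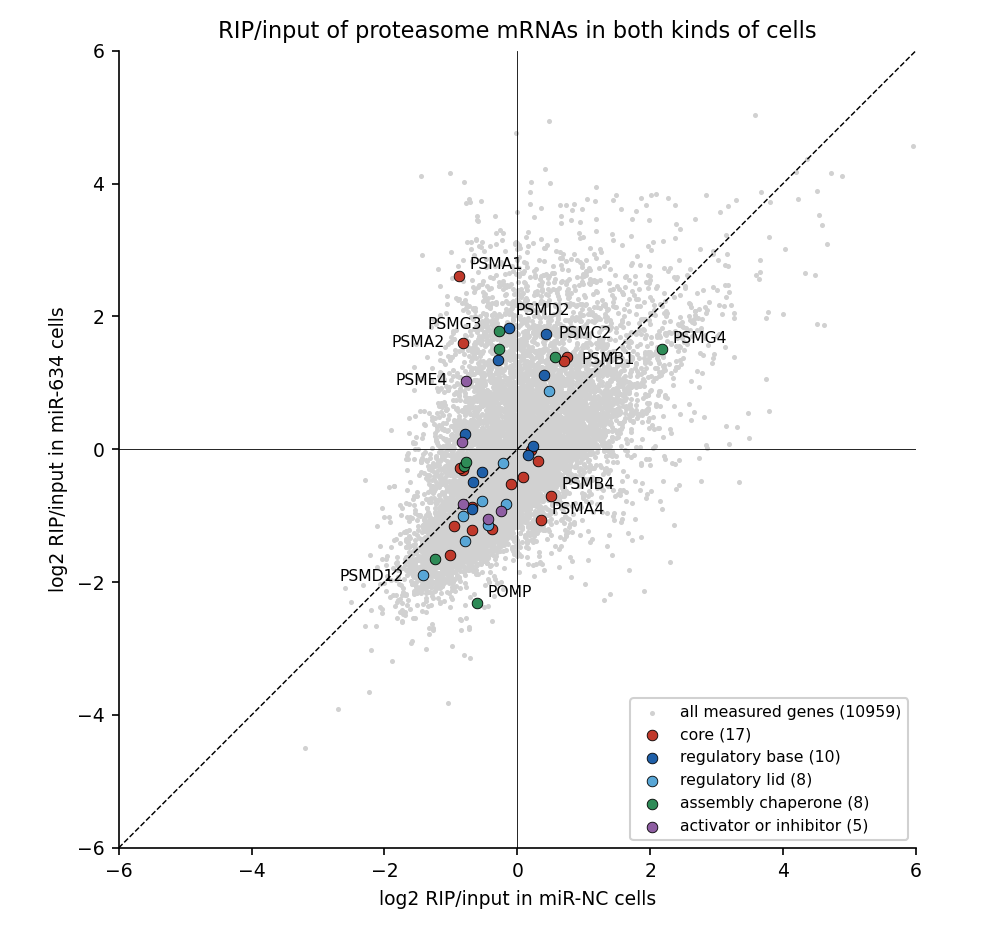
Each point is a gene, with its log2 RIP/input in miR-NC cells on the x axis and in miR-634 cells on the y axis (means of 2 arrays per group); grey points are all 10959 measured genes, coloured points are the 48 proteasome genes by class, and the dashed line marks equal values. PSMA1 and PSMA2 lie far above the line and POMP, PSMA4 and PSMB4 below it, and spike-in scaling moves all points together, down and to the left.

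The change between the 2 kinds of cells was taken as the fold change of enrichment, RIP/input in miR-634 cells minus RIP/input in miR-NC cells. It rose for 19 members and fell for 16, and 13 did not pass the test, where 28.1% of all genes rose and 43.2% fell. The 35 of 48 members called either way were a share close to the 71.3% of all genes. Its median was -0.18 over the members and -0.22 over all genes, and its SD was 1.05 across the members and 0.94 across all genes. More than 2-fold rises were seen in 9 members, which are PSMA1, PSMA2, PSMG3, PSMD2, PSME4, PSMD10, PSMD4, PSMC2 and PSMD1, where 13.3% of all genes showed one. POMP, PSMA4 and PSMB4 were more than 2-fold lower, as were 8.56% of all genes, but PSMB4 did not pass the test. The direction of these members relative to 0 depends on the scaling, so that every change below is relative to the other genes on the array. On the spike-in probes the median of all genes moved from -0.22 to 0.83. With that scaling 33 members rose and 1 fell, where 7040 of all 10959 genes rose and 202 fell. Of the 16 members that fell, 14 were then above 0, and POMP (-0.66) and PSMA4 (-0.37) were still below it. Centering on the median of all genes gave 21 members higher and 15 lower, where the calls over all genes moved from 3079 higher and 4730 lower to 3844 and 3349. RIP/input passed the test in opposite directions in the 2 kinds of cells for 9 members. Of these, 7 were lower in miR-NC cells and higher in miR-634 cells, as were 8.47% of all genes, and 2 were the other way round, as were 6.08%. Under spike-in scaling 2 of the 9 remained, PSMA1 and PSMD2.

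The largest rise was that of PSMA1, an α subunit of the core. Its level was 3.56 and 3.60 in the miR-NC input, 2.69 and 2.71 in the miR-NC RIP, 3.42 and 3.40 in the miR-634 input, and 6.10 and 5.95 in the miR-634 RIP. The RIP arrays thus lay below the input in miR-NC cells and far above it in miR-634 cells, with RIP/input of -0.88 and of 2.62, the highest of all members in miR-634 cells. The fold change of enrichment was 3.49 on the log2 scale, or 11.3-fold (SE 0.083, adjusted p = 7.55e-07), which ranked 39 among all genes from the highest. A second PSMA1 probe, for another transcript, was well above background on the 4 input arrays only and gives no RIP/input, and the same was true of a second probe of PSMC2. In all, 60 of 67 probes of these genes passed.

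PSMA2, another α subunit, followed. It had levels of 2.26 and 2.22 in the miR-NC input, 1.40 and 1.43 in the miR-NC RIP, 2.12 and 2.11 in the miR-634 input, and 3.73 and 3.70 in the miR-634 RIP. The same reversal was seen, from RIP/input of -0.82 in miR-NC cells to 1.60 in miR-634 cells, and the fold change of enrichment was 2.43, or 5.38-fold (SE 0.0618, adjusted p = 8.74e-07). PSMG3, which works with PSMG4 in the assembly of the core, had levels of 1.18 and 1.05 in the miR-NC input, 0.59 and 1.08 in the miR-NC RIP, 0.95 and 0.91 in the miR-634 input, and 2.67 and 2.75 in the miR-634 RIP. Its miR-NC RIP arrays were apart by more than those of the other groups, 1 of them overlapping the input, and the fold change of enrichment was 2.06, or 4.16-fold (SE 0.21, adjusted p = 0.000193).

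The fall furthest from 0 was that of POMP, the maturation protein that brings the β subunits into the nascent core. Its level was -3.51 and -3.50 in the miR-NC input, -3.96 and -4.26 in the miR-NC RIP, -3.28 and -3.38 in the miR-634 input, and -5.22 and -6.08 in the miR-634 RIP. The miR-634 RIP arrays lay below all others but apart from each other, and the fold change of enrichment was -1.71, or 3.27-fold lower (SE 0.369, adjusted p = 0.00574). RIP/input was -2.32 in miR-634 cells, the lowest of all members (adjusted p = 0.000153), and -0.61 in miR-NC cells, which did not pass the test (adjusted p = 0.0692). Its only probe was the dimmest of those chosen for the members, with a mean intensity of 151, the next being PSME4 with 454. Although well above background on all 8 arrays, its RIP values thus lie nearest the floor.

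PSMA4, an α subunit, moved against PSMA1 and PSMA2. It had levels of 2.18 and 2.14 in the miR-NC input, 2.56 and 2.47 in the miR-NC RIP, 2.32 and 2.22 in the miR-634 input, and 1.23 and 1.17 in the miR-634 RIP. The miR-NC RIP lay above every other array and the miR-634 RIP below every other, and the fold change of enrichment was -1.42, or 2.67-fold lower (SE 0.0827, adjusted p = 1.66e-05). PSMB4, a β subunit without protease activity, had levels of 4.10 and 4.16 in the miR-NC input, 4.60 and 4.67 in the miR-NC RIP, 4.19 and 4.18 in the miR-634 input, and 4.34 and 2.63 in the miR-634 RIP. Its 2 miR-634 RIP arrays disagreed, and its fold change of enrichment of -1.20 did not pass the test (SE 0.68, adjusted p = 0.156). Without miR-634 RIP replicate 2 it was -0.35 (adjusted p = 0.0098), and without miR-634 RIP replicate 1 it was -2.05 (adjusted p = 2.78e-05), so 1 array sets its size.

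**Figure D2:**
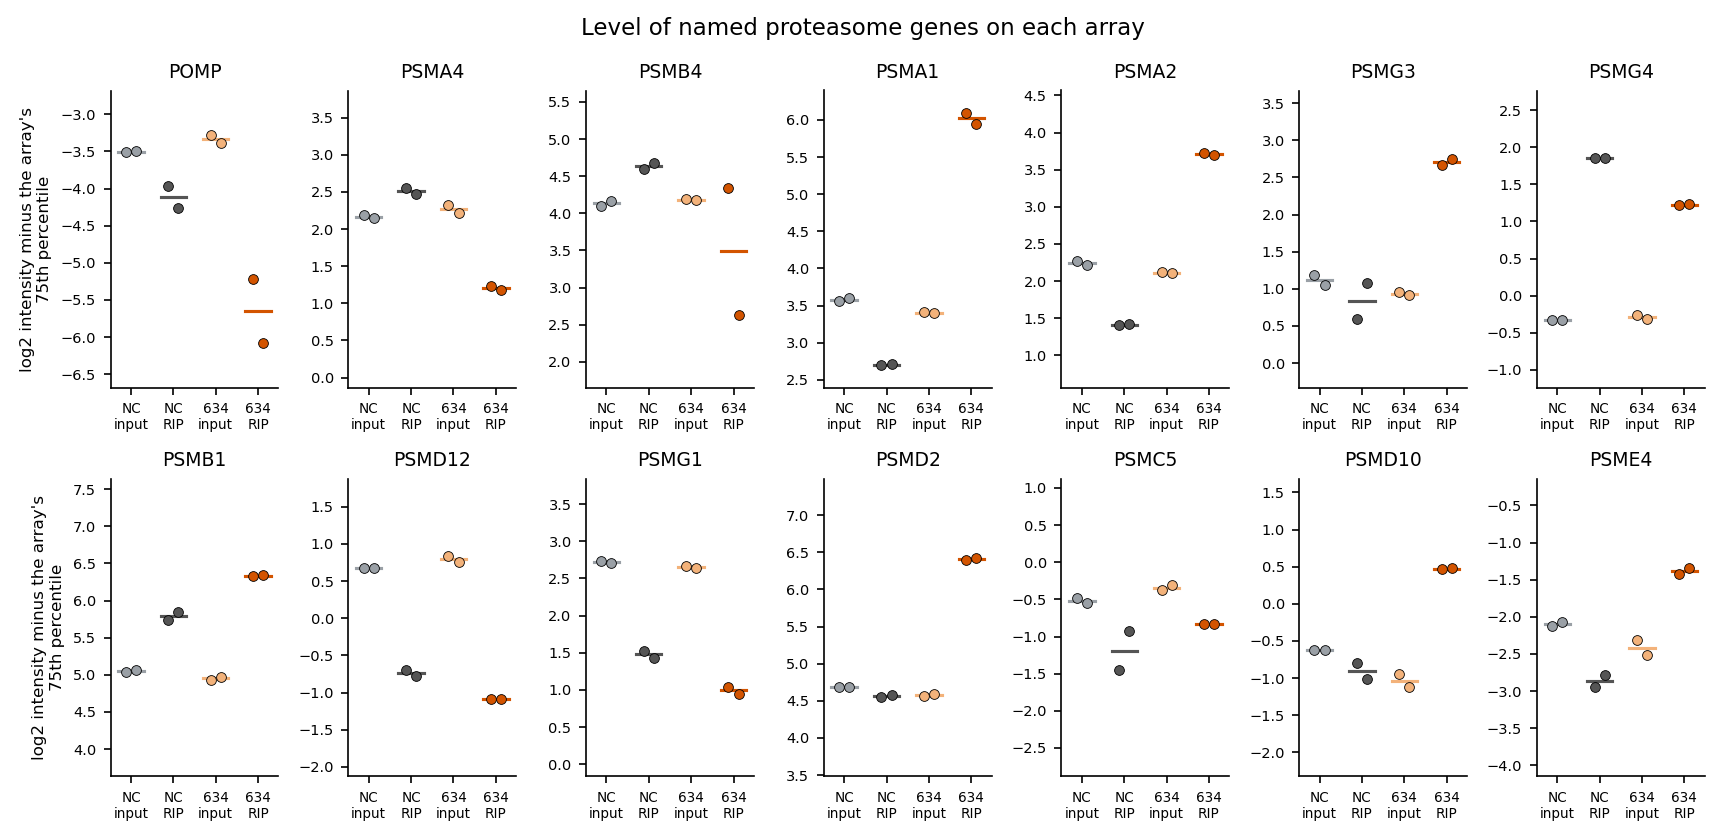
Each panel shows, for 1 proteasome gene, the log2 intensity on each of the 8 arrays minus the array's 75th percentile (y axis, spanning the same number of log2 units in each panel), with a point per array and a bar at the mean of the 2 arrays of a group (x axis). The points of most pairs nearly coincide, with the miR-634 RIP arrays of PSMB4 (4.34 and 2.63) and POMP (-5.22 and -6.08) and the miR-NC RIP arrays of PSMG3 (0.59 and 1.08) and PSMC5 (-1.45 and -0.93) furthest apart.

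The core particle was described by 17 measured genes. In the fold change of enrichment 6 rose, 7 fell and 4 did not pass the test, where 28.1% of all genes rose and 43.2% fell, and the values ran from -1.42 to 3.49 around a median of -0.22, the same as over all genes. Among the 7 α subunits, PSMA1, PSMA2 and PSMA7 (0.51) rose, PSMA4, PSMA3 (-0.58) and PSMA5 (-0.50) fell, and PSMA6 (-0.21, adjusted p = 0.0507) did not pass the test. The subunits of a single ring, which it holds in equal number, thus ranged over more of the log2 scale than any other class. Under spike-in scaling, PSMA3 and PSMA5 were above 0 (0.47 and 0.55) and PSMA4 was not.

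Among the 10 β subunits the changes were smaller. PSMB1 (0.64), the immunoproteasome subunit PSMB8 (0.62) and the catalytic, trypsin-like PSMB7 (0.58) rose, and the structural PSMB3 (-0.82) and PSMB2 (-0.50), the catalytic, caspase-like PSMB6 (-0.54) and the catalytic, chymotrypsin-like PSMB5 (-0.43) fell, all 4 of which were above 0 under spike-in scaling. The immunoproteasome subunits replace the catalytic ones in cells exposed to interferon. PSMB8 rose whereas PSMB5, whose place it takes, fell. PSMB9, which takes the place of PSMB6, had a value of -0.18 (adjusted p = 0.6), and PSMB10, which takes the place of PSMB7, had -0.22 (adjusted p = 0.103), and neither passed the test.

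For the 18 genes of the regulatory particle, all measured, 7 rose, 4 fell and 7 did not pass the test, against the same shares of all genes (28.1% and 43.2%), and the values ran from -0.70 to 1.95 around a median of -0.09. The core median minus the regulatory median was -0.13, and it was -0.34 in the arrays numbered 1 and -0.40 in the arrays numbered 2, which differ from the value of the means because other genes lie in the middle. With each array left out it ran from -0.34 (without miR-634 RIP replicate 2) to -0.12 (without miR-634 input replicate 2), and it was -0.29 without miR-634 RIP replicate 1, -0.21 without miR-NC RIP replicate 2 and -0.20 without miR-634 input replicate 1. The ranges of both particles overlapped over the whole span of the regulatory particle. Of 10 base genes 6 rose and 0 fell, with a median of 0.45, and of 8 lid genes 1 rose and 4 fell, with a median of -0.36, beside the 28.1% of all genes that rose and the 43.2% that fell. These classes were small and were given no test against each other, and under spike-in scaling the 4 lid genes that fell were above 0 as well.

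The base has 4 genes other than the ATPases, and 3 of them rose by more than 2-fold. PSMD2, the scaffold that contacts ubiquitin-like domains and shuttle factors, had levels of 4.68 and 4.69 in the miR-NC input, 4.56 and 4.57 in the miR-NC RIP, 4.56 and 4.60 in the miR-634 input, and 6.40 and 6.42 in the miR-634 RIP. The miR-634 RIP stood well above the other groups for this gene, and the fold change of enrichment was 1.95, or 3.86-fold (adjusted p = 1.34e-06), with 1.95 on its second probe too. In miR-NC cells the probes differed in sign, with RIP/input of -0.12 and 0.08. Its RIP/input of 1.83 in miR-634 cells was next to that of PSMA1. The ubiquitin receptor PSMD4 rose by 1.64, or 3.11-fold (adjusted p = 6.86e-06), and the large scaffold PSMD1 rose by 1.01, or 2.02-fold (adjusted p = 7.23e-05). ADRM1, another ubiquitin receptor of the base, had a value of -0.18 and did not pass the test (adjusted p = 0.101).

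The 6 ATPases form the ring that pulls substrates into the core. PSMC2 rose by 1.31, or 2.47-fold (adjusted p = 1.86e-05), PSMC3 by 0.72 and PSMC4 by 0.19 (adjusted p = 0.0351), and PSMC5 (0.18), PSMC6 (-0.21) and PSMC1 (-0.25) did not pass the test. In the lid, PSMD13 rose by 0.39 (adjusted p = 0.00397), and PSMD6 (-0.70), PSMD8 (-0.66), PSMD11 (-0.59) and PSMD12 (-0.47) fell. PSMD7 and PSMD14, which together form the deubiquitinating module of the lid, had values of 0.00 and -0.18, and PSMD3 had -0.25, none of which passed the test. RIP/input of the lid was also lower in both kinds of cells, for 7 of its 8 genes in each, where 45.3% (miR-NC) and 48.3% (miR-634) of all genes were lower, and PSMD13 was the exception with RIP/input of 0.48 and 0.88, respectively. The shift of RIP/input under spike-in scaling puts PSMD13 below 0 too.

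**Figure D3:**
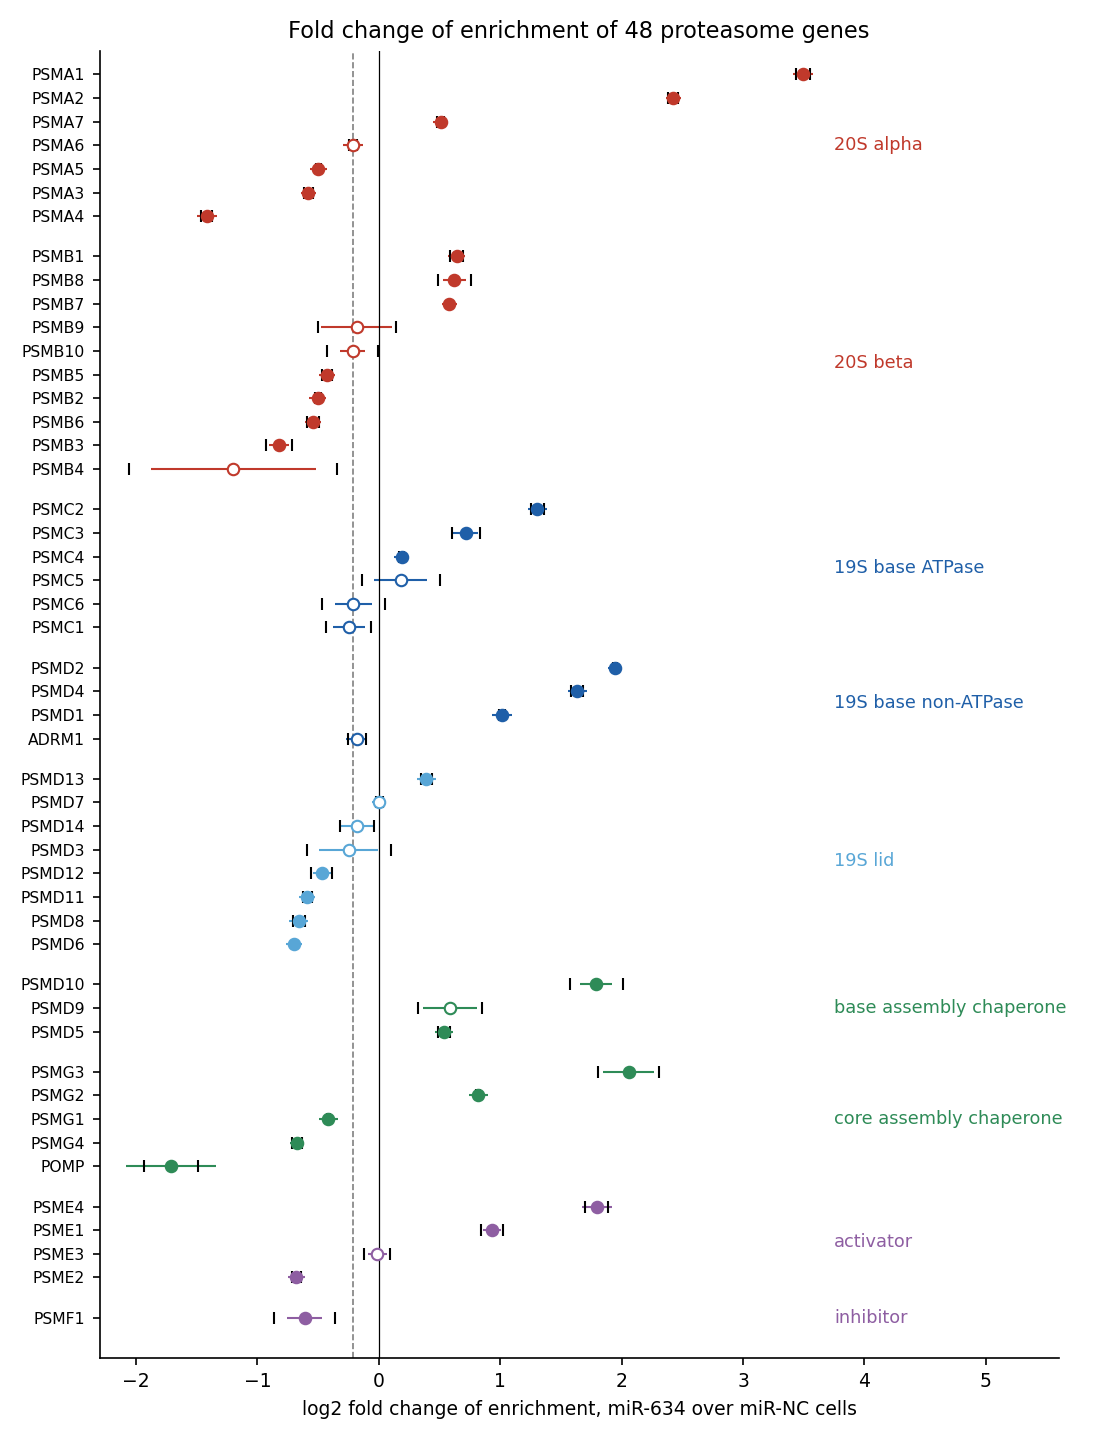
The log2 fold change of enrichment of each of the 48 proteasome genes (x axis), grouped by role and ordered within a role (y axis), with a circle and a bar for the estimate and its SE, black ticks for the values from the arrays numbered 1 and 2, and filled circles for an adjusted p under 0.05 (limma). The dashed line is the median of all genes (-0.22), and under spike-in scaling all points move to the right together, so that 14 of the 16 filled circles left of 0 cross it.

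The chaperones assemble either the base or the core. Of the 3 chaperones of the base, PSMD10 and PSMD5 rose and PSMD9 (0.59, adjusted p = 0.0531) did not pass the test. PSMD10, also known as the oncoprotein gankyrin, had levels of -0.63 and -0.62 in the miR-NC input, -0.79 and -1.02 in the miR-NC RIP, -0.94 and -1.12 in the miR-634 input, and 0.46 and 0.49 in the miR-634 RIP. Its miR-634 RIP lay above all other arrays, and the fold change of enrichment was 1.79, or 3.46-fold (adjusted p = 4.06e-05), beside 0.54 for PSMD5 (adjusted p = 0.000918). Among the 5 chaperones of the core, PSMG3 and PSMG2 (0.82, adjusted p = 0.000155) rose, and POMP, PSMG4 (-0.67) and PSMG1 (-0.41) fell, although PSMG4 and PSMG1 were above 0 under spike-in scaling (0.37 and 0.63). The partners in each of the pairs PSMG1 with PSMG2 and PSMG3 with PSMG4 thus moved in opposite directions relative to the other genes.

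The activators cap the core in place of the regulatory particle. PSME4, which forms a single-chain cap found mainly in the nucleus, stood at -2.13 and -2.07 in the miR-NC input, -2.94 and -2.78 in the miR-NC RIP, -2.31 and -2.52 in the miR-634 input, and -1.43 and -1.34 in the miR-634 RIP. The miR-NC RIP was the lowest group and the miR-634 RIP the highest, without overlap, and the fold change of enrichment was 1.80, or 3.47-fold (adjusted p = 3.55e-05). PSME1 and PSME2, which build an interferon-inducible ring together, moved apart, by 0.93 for PSME1 (adjusted p = 7.22e-05) and -0.68 for PSME2 (adjusted p = 0.000189; 0.37 under spike-in scaling). PSME3 had a value of -0.01 (adjusted p = 0.887). PSMF1, an inhibitor of the core, fell by 0.61 (adjusted p = 0.00762), but its 4 probes ranged from -0.61 to 0.04. Under spike-in scaling the value of PSMF1 was above 0, at 0.44.

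Where a member had more than 1 passing probe, the probes mostly agreed in sign. This held for 8 of 10 genes, and the median range between the probes of a gene was 0.21. The closest pairs were those of PSMD2 and of PSMB2 (-0.50 and -0.49), and PSMB1 had 0.64 and 0.73, PSMD10 1.79 and 1.63, PSMD1 1.01 and 0.95, and PSME4 1.80 and 1.35. PSMD5 had 0.54 and 0.22, and PSMC1 had -0.25 and -0.51. The signs differed for PSMF1 and for PSMD14, with -0.18 and 0.13. In RIP/input, the probes of PSMD5 differed in sign in both kinds of cells, with -0.80 and 0.35 in miR-NC cells and with -0.26 and 0.58 under miR-634.

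The input levels of proteasome mRNAs hardly differed between the 2 kinds of cells. The input change, miR-634 input minus miR-NC input, passed the test for 3 of the 48 members, all lower, and for 0 upward, where 12.1% of all genes were lower and 11.6% were higher. At an unadjusted p under 0.05, 4 members were higher and 8 were lower, where 18.3% and 19.1% of all genes were. The changes ranged from -0.41 to 0.18, with a median of -0.000228 over the members and -0.00521 over all genes. Under spike-in scaling these medians were -0.24 and -0.25. With that scaling 2 members were lower and 0 higher, where 972 of all 10959 genes were lower and 27 were higher. No member moved by more than 2-fold, as 0.109% of all genes did upward and 0.392% downward. For the 17 core genes the median was -0.09 and for the 18 regulatory genes 0.11, with 0 called in each.

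The 3 members with a lower input were PSMD10 (-0.41, adjusted p = 0.0224), PSME4 (-0.32, adjusted p = 0.0449) and PSMG2 (-0.20, adjusted p = 0.0463). All 3 rose in the fold change of enrichment. On their second probes the input change was -0.07 for PSMD10 and -0.11 for PSME4. None of these 3 calls was kept without miR-NC input replicate 1, without miR-NC input replicate 2 or without miR-634 input replicate 2, and 1 call was made without miR-634 input replicate 1. The largest upward values, neither of which passed the test, were those of PSMC5 (0.18, adjusted p = 0.45) and POMP (0.17, adjusted p = 0.675). PSMC5, an ATPase, had levels of -0.48 and -0.55 in the miR-NC input, -1.45 and -0.93 in the miR-NC RIP, -0.37 and -0.31 in the miR-634 input, and -0.83 and -0.83 in the miR-634 RIP. Its miR-NC RIP arrays were the lowest of all and lay apart from each other.

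In the RIP itself, miR-634 RIP minus miR-NC RIP, 20 members rose and 18 fell, where 30.9% of all genes rose and 46.5% fell. Under spike-in scaling 32 rose and 2 fell, where 6914 of all 10959 genes rose and 432 fell. The median was -0.06 over the members and -0.18 over all genes. All 35 members called in the fold change of enrichment were called in the same direction in the RIP change, which uses the same RIP arrays. In the input, 3 of the 35 were called. The fold change of enrichment is the RIP change minus the input change. Across all genes the SD was 0.85 in the RIP change and 0.25 in the input change. Such agreement is thus largely built in, and its share over all genes is not given here. PSMA1 rose by 3.32 in the RIP (adjusted p = 1.58e-07), PSMA2 by 2.30, PSMG3 by 1.87, PSMD2 by 1.84 and PSMD4 by 1.77, and PSMA4 fell by 1.31 (adjusted p = 3.21e-06) and POMP by 1.54 (adjusted p = 0.00161).

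**Figure D4:**
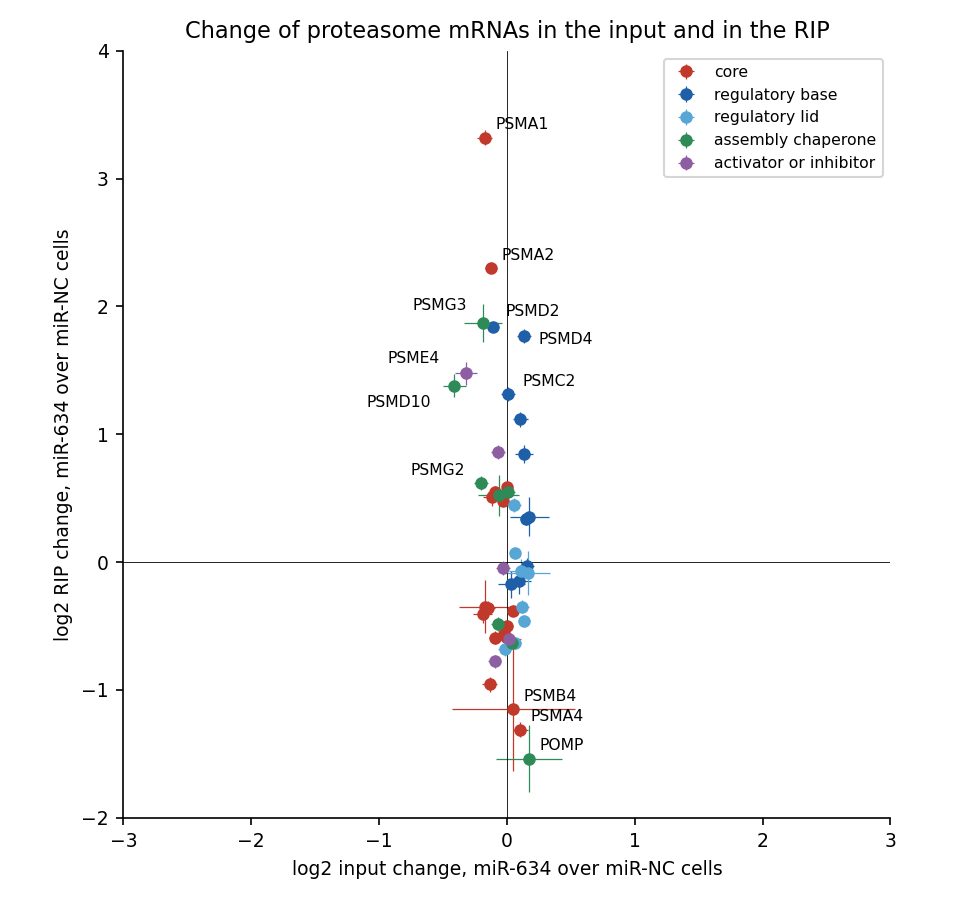
The log2 change between miR-634 and miR-NC cells in the input (x axis) and in the RIP (y axis), with a point and SE bars for each of the 48 proteasome genes, coloured by class, on axes of equal scale. The points form a narrow upright band, from -0.41 to 0.18 in the input and from -1.54 to 3.32 in the RIP, and spike-in scaling shifts the whole band and leaves its shape.

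Other genes of the pathway, taken from a list of 25 that are no members, were measured in 20 cases, and 7 rose and 8 fell in the fold change of enrichment, where 28.1% of all genes rose and 43.2% fell. AKIRIN2, which brings proteasomes into the nucleus, rose by 2.35, the base assembly factor PAAF1 by 1.83, the proteasome-bound ubiquitin ligase UBE3C by 1.42 and NPLOC4, a cofactor of the unfoldase VCP, by 1.22. TXNL1 (0.82) and NGLY1 (0.26) rose too. The shuttle factors RAD23B (-1.13) and UBQLN2 (-0.92), which carry ubiquitinated proteins to the proteasome, fell, as did SEM1 (-0.96), a small lid subunit whose symbol lies outside the naming rule. Falls were also seen for ZFAND2A (-0.91), ZFAND5 (-0.53), UFD1 (-0.43), and NFE2L1 (-0.33), the transcription factor that raises proteasome genes when the proteasome is impaired. The shift of all genes under spike-in scaling puts the falls named here above 0, except that of RAD23B. In the input, NFE2L1 (0.31), ZFAND2A (0.32) and RAD23B (0.30) rose, and UBE3C (-0.65) and AKIRIN2 (-0.32) fell.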

How the data were processed

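The authors deposited, per array, the intensity of each spot as read by Agilent Feature Extraction (version 9.1 in the submitters' processing notes), background-subtracted and detrended within the array, and a table of processed log2 values, used here only as an alternative. Spots that were controls or outliers were dropped, repeat spots were averaged per probe, and values were put on the log2 scale. Of 58201 probes, 28.9% (16808) exceeded background clearly on every one of the 8 arrays, and the 75th percentile over these probes was subtracted from each array. RefSeq accessions of the probes were matched to symbols for 31104 probes (GRCh38.p14 table). Apart from those of miR-634, which are on GRCh38.p14, no gene coordinates are given, since hg19 is the build of the array design.

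Changes were tested with limma 3.58.1 in R 4.3.3 (means of the 4 groups in lmFit, then eBayes, Benjamini-Hochberg adjustment over 10959 genes, threshold 0.05), tested on simulated data in which 78.5% of 200 genes changed by 1 (log2) were recovered in the fold change of enrichment and 4.85% of the calls were false. Only these 200 of 10959 genes changed in the simulation, whereas 71.3% were called in the data. The simulated shares therefore do not give the error rate of the real calls. Levels on each array are given for the members with the 3 largest rises and falls of the fold change of enrichment, the 2 highest and lowest RIP/input in each kind of cells and the 2 highest and lowest input changes. Members and lists were chosen with earlier results of these data known. Genes of other lists are named where they passed the test. Some of these genes are counted but not reported here by name. No slide or scan block was fitted, since all arrays share 1 of each, and the position of an array on the slide and its group cannot be told apart. Replicates correlated at 0.996 to 0.999, with a median SD of 0.035 to 0.060 (log2). Same-numbered arrays did not deviate together (r from -0.04 to 0.08). The alternatives were 5 other scalings or normalizations, the authors' values, other filters and probe choices, an intensity trend, a replicate block, a t-test on the ratio per replicate number, normexp with an offset of 50 and each array left out in turn. Python 3.11.15 with pandas 2.3.3 and matplotlib 3.10.9 was used for tables and plots. Transcript and protein sequences were not used here.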

Additional observations from a re-analysis of the deposited data

Results flagged for a closer look

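By the test of the difference itself, the effect of pulling down AGO2 differed between miR-634 and miR-NC cells for 35 of the 48 proteasome genes. Of them, 19 were higher and 16 lower. The share called is close to that of all genes, of which 71.3% were called. Under spike-in scaling 33 members were higher and 1 lower, where 7040 of all 10959 genes were higher and 202 lower. Of the 35 members, 9 passed the test in opposite directions in the 2 kinds of cells, as did 14.5% of all genes. Under spike-in scaling PSMA1 and PSMD2 were the 2 that still did, with 5.94% of all genes. PSMA1 (log2 fold change of enrichment 3.49), PSMA2 (2.43), PSMD2 (1.95), PSME4 (1.80), PSMD10 (1.79), PSMD4 (1.64) and PSMD1 (1.01) were below their input in the RIP of miR-NC cells and above it in that of miR-634 cells. PSMA4 (-1.42) and PSMA5 (-0.50) were above it in miR-NC cells and below it in miR-634 cells. RIP/input of PSMD2 in miR-NC cells (-0.12, adjusted p = 0.0356) was the closest of these to 0, and with genes centered on their median it was 0.00541. On its second probe it was 0.08.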

How the results depend on the processing

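Of 2448 values of 120 results for single members under 21 alternatives, 2267 kept direction and call, 85 lost the call, 67 gained it and 29 turned direction, 28 of them with scaling on the spike-in probes. In the fold change of enrichment these results cover every measured member. In the other comparisons they cover only the members with levels given by array, those called in opposite directions, and PSMG2. Further members can have turned there without being listed, whereas the counts of members called include all. The causes were not tested. With that scaling the members called were 0 higher and 47 lower in RIP/input of miR-NC cells, 2 higher in that of miR-634 cells, 33 higher and 1 lower in the fold change of enrichment, and 32 higher and 2 lower in the RIP change. Over all 10959 genes the same counts were 70 higher and 10709 lower, 759 higher, 7040 higher and 202 lower, and 6914 higher and 432 lower. Among the 120 results, the values that turned were, in RIP/input of miR-NC cells, PSMA4 -2.10, PSMA5 -2.13, PSMB1 -1.70, PSMG2 -1.87 and PSMG4 -0.26, and in that of miR-634 cells PSMB1 -0.0150, PSMD1 -1.17, PSMD4 -0.0460, PSME4 -0.37 and PSMG2 -0.00629. In the fold change of enrichment they were PSMA3 0.47, PSMA5 0.55, PSMB2 0.55, PSMB3 0.23, PSMB5 0.62, PSMB6 0.51, PSMD6 0.35, PSMD8 0.39, PSMD11 0.46, PSMD12 0.58, PSME2 0.37, PSMF1 0.44, PSMG1 0.63 and PSMG4 0.37, and in the RIP change PSMA5 0.31, PSMD12 0.46, PSMG1 0.32 and PSMG4 0.17. With genes centered on their median, RIP/input of PSMD2 in miR-NC cells was 0.00541.

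The input calls were the least stable. They were 1 higher and 5 lower with an intensity trend, 0 lower with no filter on dim probes, and 1 lower with the percentile over all probes, the authors' processed values, the filter on the input arrays only, the mean of the probes and the replicate block. With each array left out in turn they ranged from 0 to 1 higher and from 0 to 3 lower. The replicate block left the fold change of enrichment at 19 higher and 16 lower. A t-test on the ratio per replicate number gave 19 higher and 14 lower members before and 16 higher and 14 lower after adjustment. Of all 10959 genes, 2706 were higher and 3817 lower before adjustment, and 2278 higher and 2961 lower after it. The study's methods name a t-test in general but no test for the arrays. The core median minus the regulatory median was -0.20 with the mean of the probes and ranged from -0.34 to -0.12 with each array left out. A lone array was then assumed to vary like the other groups.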
